A study of Rattus norvegicus with 10 samples.

Results

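The genes described are 10 that build or regulate the cytoskeleton of neurons: the intermediate filament genes Nefl, Nefm, Nefh, Prph and Ina, the tubulin gene Tubb3, the growth-associated gene Gap43 and the stathmin genes Stmn2, Stmn3 and Stmn4. They were chosen by name, and each name had 1 row among the 30560 genes of the count table. RNA sequencing measured them in dorsal root ganglia of lumbar level L6, which house the cell bodies of sensory neurons. The animals were Sprague Dawley rats of 7 to 8 weeks. All rats, controls included, carried a surgically placed lumbar intrathecal catheter and had received meloxicam. After 5 days, 30 to 45 µL was given through it: phosphate-buffered saline in the PBS group (5 samples) and 0.75 mg of the divalent small interfering RNA SCN9A_2544, directed at the sodium channel gene Scn9a, in the treated group (5 samples). The timepoint of every sample is labelled as 14 days, without a stated start. No group given another siRNA was analysed here, so effects of this sequence and of siRNA dosing in general cannot be told apart, and the labels do not say that each sample came from its own animal.

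Axons are filled with neurofilaments, copolymers of a light (Nefl), a medium (Nefm) and a heavy (Nefh) subunit, which set axon calibre and are abundant in large myelinated neurons. Peripherin (Prph) is the related filament protein of small sensory neurons, and alpha-internexin (Ina) is a further subunit known mostly from the central nervous system. Tubb3 is the neuron-specific beta-tubulin, stathmins bind tubulin and regulate microtubule growth, and Gap43 is a membrane protein of growth cones. After axon injury, sensory neurons are known to lower neurofilament transcripts and to raise growth-associated ones.

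The libraries held 11832376 to 15420006 estimated counts, and 15186 genes were tested. Scn9a (ENSRNOG00000006639), which encodes Nav1.7, stood at 132 to 257 CPM (the count divided by library size, on a fixed scale) in PBS ganglia and at 44.6 to 103 CPM in treated ganglia, so the groups did not overlap. Its log2 fold change was -1.03 (SE 0.25, edgeR adjusted p = 0.963), with an adjusted p of 0.0391 once neuron content was a covariate. The ganglion markers Avil and Drgx had at least 4630 and 468 counts in every library, and Pou4f1 and Isl1 at least 138 and 129. The libraries differed widely in neuron content. The mean of 19 pan-neuronal genes, none of them among the 10, ranged from 7.21 to 8.54 log2 CPM, a 2.50-fold range. It was lowest in replicate 3 of each group, where the mean of 12 Schwann cell and myelin markers reached 9.91 and 10.17 log2 CPM against 7.81 to 9.92 elsewhere. In bulk tissue, fewer neurons and less RNA per neuron cannot be told apart. The pan-neuronal mean differed by 0.07 between groups (two-sided exact permutation p = 0.841).

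The 10 genes together took 1.30% to 3.83% of all counts of a library, and the 3 neurofilament subunits took most of that, 0.916% to 2.91%. No gene of the 10 passed an adjusted p of 0.05 for SCN9A_2544 against PBS, whether by edgeR's quasi-likelihood test (0 of 10, smallest adjusted p = 0.963) or by DESeq2 (0 of 10, against 0.0945% of all genes). By edgeR 0 of the 10 also reached an unadjusted p under 0.05, against 4.23% of all genes tested, while 0 of all genes (0.0%) passed the adjusted threshold. With library quality weights in limma voom, which called 20.9% of all genes at an unadjusted p under 0.05, 4 of the 10 did so (Prph, Ina, Tubb3 and Gap43). In the edgeR fit without a covariate, 7 of the 10 estimates lay above 0 and 3 below, against 53.4% of all genes above 0. Their median log2 fold change was 0.14, against 0.02 over all genes tested. The groups overlapped for every one of the 10, and 0.665% of all genes had groups that did not overlap.

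**Figure D1:**
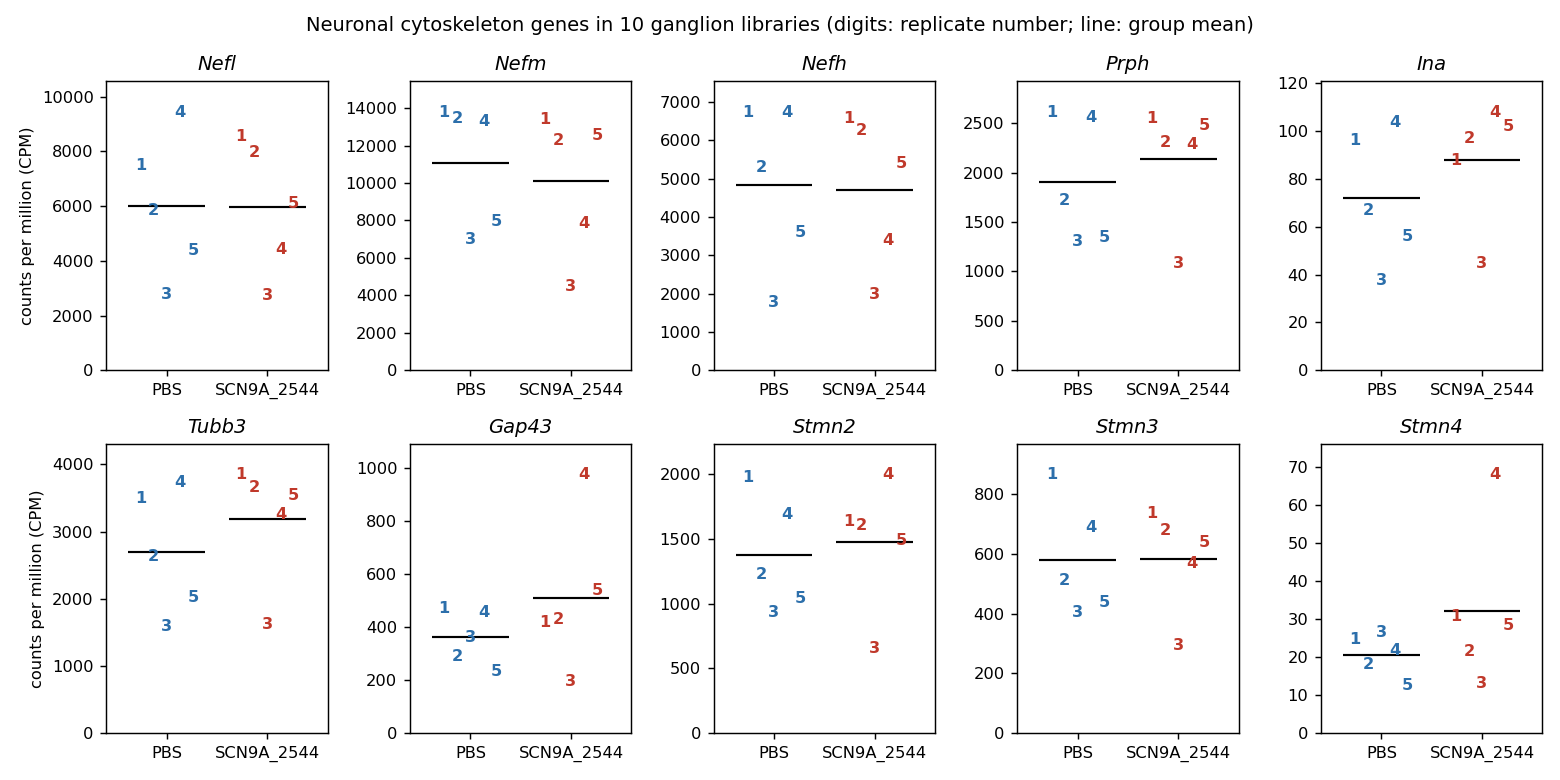
Each panel plots 1 gene, with CPM on the vertical axis (starting at 0) and the group on the horizontal axis. Digits are the replicate numbers of the 10 libraries and lines are group means (n = 5 each). Replicate 3 is the lowest library for most genes, and SCN9A_2544 replicate 4 is the highest for Gap43 and Stmn4, at 975 and 67.9 CPM.

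The light subunit gene Nefl (ENSRNOG00000013658) stood at 7493, 5845, 2785, 9439 and 4370 CPM in PBS replicates 1 to 5. In SCN9A_2544 replicates 1 to 5 it stood at 8549, 7943, 2748, 4415 and 6099 CPM. The groups covered nearly the same range, with replicate 3 lowest in each. Its log2 fold change was -0.01 (95% interval -0.83 to 0.81, edgeR adjusted p = 0.999). The heavy subunit gene Nefh (ENSRNOG00000008716), whose long tail carries the phosphorylated repeats of mature axons, stood at 6737, 5295, 1766, 6723 and 3604 CPM in PBS and at 6572, 6241, 1972, 3393 and 5393 CPM in treated replicates 1 to 5. Its 3.81-fold span over the 10 libraries was the widest among the filament genes. Its log2 fold change was -0.03 (-0.92 to 0.85, adjusted p = 0.997). The medium subunit gene Nefm (ENSRNOG00000013916) averaged 11087 ± 3341 CPM in the PBS libraries and 10103 ± 3803 CPM in the treated ones (SD, n = 5 each). Its log2 fold change was -0.13 (-0.87 to 0.60). The signs of Nefl and Nefh turned with library quality weights, and that of Nefl also with a replicate block.

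Peripherin (Prph, ENSRNOG00000052880) averaged 1908 ± 640 CPM in the PBS libraries and 2141 ± 603 CPM in the treated ones (SD, n = 5 each), and its log2 fold change was 0.17 (-0.46 to 0.79). Treated replicates 1, 2, 4 and 5 lay close together, at 2291 to 2548 CPM, and replicate 3 lay apart at 1080 CPM. Alpha-internexin (Ina, ENSRNOG00000020248) stood at 95.9, 66.6, 37.6, 103 and 56.0 CPM in PBS replicates 1 to 5 and at 87.9, 97.1, 44.7, 108 and 102 CPM in treated replicates 1 to 5. Its highest library was treated replicate 4, in which Nefl, Nefm and Nefh were all below their treated means. The log2 fold change of Ina was 0.29 (-0.35 to 0.93). Tubb3 (ENSRNOG00000017209) stood at 3492, 2625, 1589, 3725 and 2014 CPM in PBS replicates 1 to 5 and at 3846, 3662, 1622, 3260 and 3538 CPM in treated replicates 1 to 5. The groups covered nearly the same range, and 4 treated libraries lay at 3260 CPM or above, against 2 PBS libraries. The log2 fold change of Tubb3 was 0.24 (-0.40 to 0.89).

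Among the growth-associated genes, Gap43 (ENSRNOG00000001528) stood at 471, 287, 361, 453 and 232 CPM in PBS replicates 1 to 5. In treated replicates 1 to 5 it stood at 418, 429, 193, 975 and 538 CPM. Replicate 4 alone lay far above both groups, and replicate 3 was the lowest of all 10 libraries. Stmn4 (ENSRNOG00000053334), a neuronal stathmin, was also highest in treated replicate 4, while its lowest library was PBS replicate 5. It stood at 24.6, 17.9, 26.3, 21.8 and 12.3 CPM in PBS and at 30.6, 21.4, 12.9, 67.9 and 28.2 CPM in treated replicates 1 to 5. The log2 fold changes were 0.50 for Gap43 (-0.28 to 1.28) and 0.64 for Stmn4 (-0.18 to 1.47), the largest of the 10. Without SCN9A_2544 replicate 4 they were 0.13 and 0.18. Without SCN9A_2544 replicate 3 they were 0.68 and 0.82, with unadjusted edgeR p-values of 0.0363 and 0.0288, and the edgeR adjusted p of Gap43 was 0.661. Over all genes, fits without single libraries called 385 to 1642 at an unadjusted p under 0.05. The number for the fit without SCN9A_2544 replicate 3 alone is not given, so these p-values of Gap43 and Stmn4 have no share of their own beside them.

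The other stathmins differed less. Stmn2 (ENSRNOG00000011705), an axonal stathmin also used as a marker of regrowing sensory axons, averaged 1373 ± 444 CPM in the PBS libraries and 1476 ± 497 CPM in the treated ones (SD, n = 5 each). Its log2 fold change was 0.10 (-0.55 to 0.76). Stmn3 (ENSRNOG00000013657) was at 581 ± 194 and 583 ± 173 CPM, with a log2 fold change of 0.00 (-0.60 to 0.61). The intervals of all 10 genes reached past 0.5 log2 units, so a difference of that size was within the error for each. The estimates of Ina, Tubb3 and Stmn3 were not whole numbers in any of the 10 libraries, so reads were shared out among features there, and tubulin paralogs are a group of near-identical genes whose split was made before deposit.

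**Figure D2:**
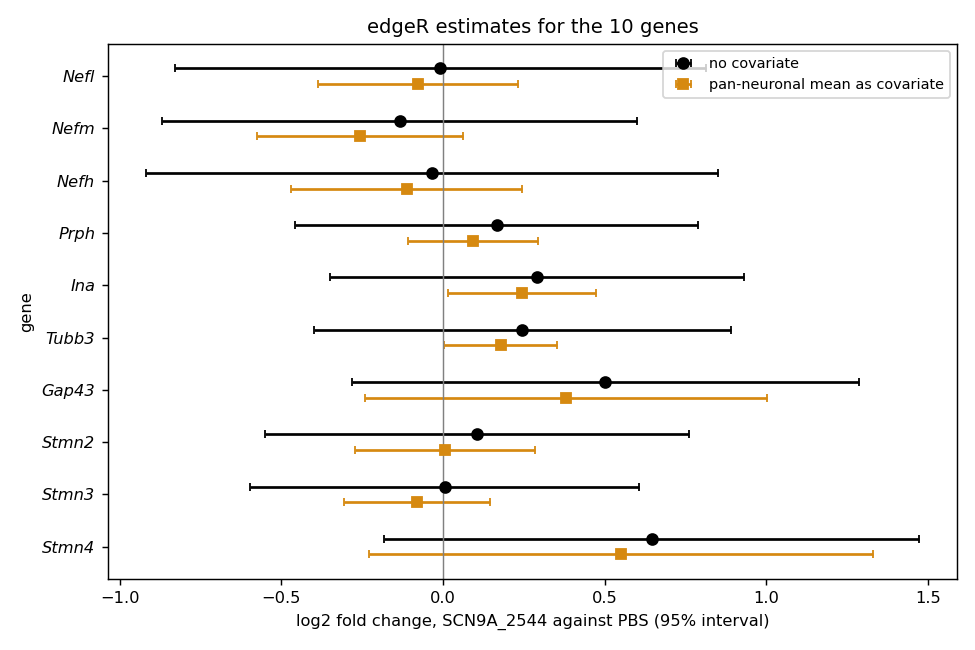
The log2 fold change of each gene, SCN9A_2544 against PBS, is plotted with its 95% interval from edgeR without a covariate (black circles) and with the pan-neuronal mean as covariate (orange squares). All black intervals cross 0. The orange intervals are narrower, and those of Ina (0.02 to 0.47) and Tubb3 (lower end 0.0025) lie just above 0.

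How closely each gene followed the neuron content of a library differed among the 10. Over the 10 libraries Tubb3 followed the pan-neuronal mean with Pearson r = 0.98 (permutation p = 4e-05) and Spearman rho = 0.87 (p = 0.00206). Prph had r = 0.98 (permutation p = 3e-05) and rho = 0.95 (p = 0.00011), and Stmn3 had r = 0.96 and rho = 0.94. The neurofilament subunits had r = 0.94 for Nefl, 0.93 for Nefh and 0.89 for Nefm, and Ina and Stmn2 each had r = 0.94. Gap43 followed it less closely, with r = 0.66 (permutation p = 0.037, rho = 0.65, p = 0.0496). Stmn4 had r = 0.45 (permutation p = 0.192, rho = 0.31, p = 0.389). Adjusted over the 10 relations computed, p-values for r were 0.0411 for Gap43, 0.192 for Stmn4 and at most 0.00194 for the others, while the adjusted p for rho of Gap43 was 0.0551. Without the 2 libraries farthest from the median, replicate 3 of each group, r was 0.96 for Tubb3, 0.95 for Prph, 0.75 for Nefh, 0.66 for Nefm, 0.54 for Gap43 and 0.42 for Stmn4. Without SCN9A_2544 replicate 4, r was 0.81 for Gap43 and 0.58 for Stmn4.

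The slope against the pan-neuronal mean, both on the log2 scale, was near 1 for Prph (1.02), Stmn2 (1.05), Nefm (1.07) and Tubb3 (1.08). It was steeper for Nefl (1.30) and Nefh (1.46), and relative to the pan-neuronal mean these were low in replicate 3 of each group. That did not hold for every library: PBS replicate 5, the next lowest in neuron content, had Nefl and Nefh at 0.011 and 0.077 log2 units from their PBS means on that scale, and the lowest relative Nefl was in SCN9A_2544 replicate 4. A gene set against its library's pan-neuronal mean varied much less than its level did. The SD over 10 libraries went from 0.51 to 0.10 log2 units for Tubb3 and from 0.48 to 0.11 for Prph. For Gap43 it went only from 0.66 to 0.50, and for Stmn4 from 0.69 to 0.64.

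**Figure D3:**
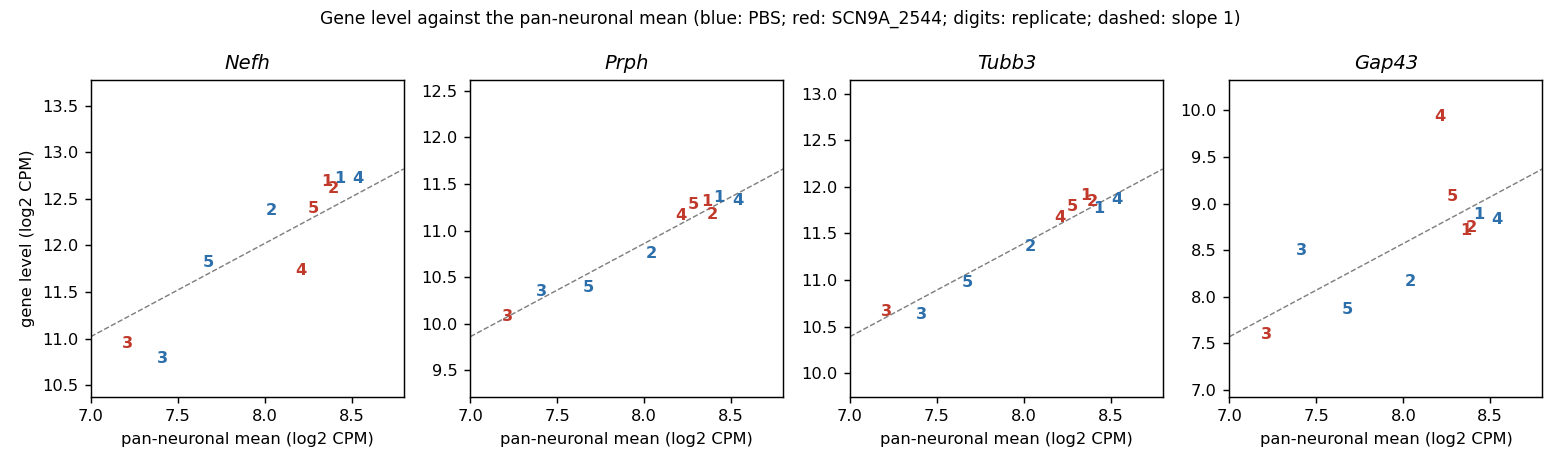
Levels of Nefh, Prph, Tubb3 and Gap43 (vertical, log2 CPM) are plotted against the mean of 19 pan-neuronal genes of the same library (horizontal, log2 CPM). Digits are replicate numbers (blue PBS, red SCN9A_2544) and the dashed line has slope 1. Prph and Tubb3 lie along the line (r = 0.98 each), whereas SCN9A_2544 replicate 4 lies below it for Nefh and well above it for Gap43.

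Set against the pan-neuronal mean of the same library, Tubb3 had groups that did not overlap. It lay 3.34, 3.32, 3.22, 3.33 and 3.30 log2 units above that mean in PBS replicates 1 to 5 and 3.55, 3.44, 3.45, 3.46 and 3.51 above it in treated replicates 1 to 5. All 5 treated libraries lay above all 5 PBS libraries. The difference was 0.18 log2 units, or 13.4%, and the two-sided exact permutation test gave p = 0.00794, which is the lowest value 5 libraries against 5 can give. Groups did not overlap on this scale for 1 of the 10 genes and for 0.27% of all genes tested. Adjusted over all genes, the exact permutation p of Tubb3 was 1.00, and in edgeR with the pan-neuronal mean as covariate it had a log2 fold change of 0.18 (SE 0.08, adjusted p = 0.513). The difference depended on the reference genes. Against the median of the same list it was 0.24 (exact permutation p = 0.151), and against 8 sensory ganglion identity genes it was 0.03 (exact permutation p = 0.508).

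Ina lay below the pan-neuronal mean in every library, by less on average in the treated group. Its relative level was -1.85, -1.98, -2.17, -1.84 and -1.87 log2 units in PBS and -1.90, -1.79, -1.73, -1.45 and -1.61 in treated replicates 1 to 5. The groups overlapped through treated replicate 1. The difference was 0.25 log2 units, or 18.6% (exact permutation p = 0.0397), and edgeR with the covariate gave 0.24 (SE 0.10, adjusted p = 0.504). It was 0.10 against the identity genes (exact permutation p = 0.437). The exact permutation p stayed under 0.05 without PBS replicate 1, PBS replicate 4 or SCN9A_2544 replicate 1, and was 0.0556 to 0.0873 without PBS replicate 2, 3 or 5 or SCN9A_2544 replicate 2, 3, 4 or 5. The lowest difference, 0.19, came without SCN9A_2544 replicate 4. Tubb3 and Ina were the 2 of the 10 with an exact permutation p under 0.05 on this scale, against 1.53% of all genes, and the 2 with an unadjusted p under 0.05 in the covariate fit, against 9.72%.

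The relative levels of the other 8 genes did not reach an exact permutation p of 0.05. Over all genes tested the median difference on this scale was -0.05. The differences in log2 units were -0.25 for Nefm (exact permutation p = 0.183), -0.08 for Nefh, -0.07 for Nefl, 0.10 for Prph (exact permutation p = 0.151), 0.29 for Gap43, 0.40 for Stmn4 and -0.07 for Stmn3, and Stmn2 was at 2.35 in each group. With the covariate, 95% intervals were -0.58 to 0.06 for Nefm, -0.39 to 0.23 for Nefl, -0.47 to 0.25 for Nefh and -0.11 to 0.29 for Prph. Against the identity genes the difference of Nefm was -0.40 (unadjusted exact permutation p = 0.0317), with no share over all genes for this reference. The mean of the identity genes was itself 6.87 log2 CPM in treated and 6.65 in PBS libraries. For the pan-neuronal mean these were 8.09 and 8.02, so every gene has a lower difference against the identity genes.

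Promoters of 4 of the 10 genes (Prph, Ina, Tubb3 and Stmn3) were in the RefSeq table, build GRCr8. Those of Tubb3 and Ina, the 2 genes with an unadjusted exact permutation p under 0.05 on the relative scale, are shown beside that of Stmn3, which had a larger p. Each run gives the 250 bases before the annotated start, 5′ to 3′ on the gene's strand. Capitals mark matches on either strand to 3 promoter motifs: the TATA box letters TATAA, the GC box letters GGGCGG, and CCAAT. The places are chr19:68365437-68365686 (+) for Tubb3, chr1:255837879-255838128 (+) for Ina and chr3:188802495-188802744 (-) for Stmn3.
Tubb3: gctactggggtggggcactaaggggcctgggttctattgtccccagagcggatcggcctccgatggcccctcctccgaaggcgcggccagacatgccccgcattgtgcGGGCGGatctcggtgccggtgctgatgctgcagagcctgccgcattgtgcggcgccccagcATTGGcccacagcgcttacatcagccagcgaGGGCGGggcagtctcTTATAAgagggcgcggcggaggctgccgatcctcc
Ina: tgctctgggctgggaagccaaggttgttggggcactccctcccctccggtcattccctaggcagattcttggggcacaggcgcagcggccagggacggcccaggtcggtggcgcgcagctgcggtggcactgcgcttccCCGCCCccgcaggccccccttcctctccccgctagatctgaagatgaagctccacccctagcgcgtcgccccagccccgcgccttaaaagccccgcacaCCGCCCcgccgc
Stmn3: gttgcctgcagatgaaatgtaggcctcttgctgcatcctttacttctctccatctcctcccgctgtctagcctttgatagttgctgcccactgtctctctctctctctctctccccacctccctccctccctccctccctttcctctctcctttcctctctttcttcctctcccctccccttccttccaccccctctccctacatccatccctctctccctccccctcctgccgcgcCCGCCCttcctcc
GC content was 68.0% for Tubb3, 70.8% for Ina and 59.2% for Stmn3, against a median of 51.2% over 33469 windows of the same length. Tubb3 held TATAA on both strands, in 1 overlapping stretch, as well as 2 matches to GGGCGG and 1 to CCAAT. Ina held 2 matches to GGGCGG and Stmn3 held 1, and neither held the other motifs. The window of Prph, not shown, held 1 match to TATAA and 1 to GGGCGG. Prph, like Stmn3, had a larger exact permutation p on the relative scale (0.151 for Prph). Of all promoter windows 24.0% held TATAA, 30.5% GGGCGG and 34.0% CCAAT. AP-1 letters (TGANTCA), the site bound by Jun and Fos family proteins, were in 0 of the 4 windows and in 6.34% of all.

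Within the family the ratios of members were compared directly, since a ratio of 2 genes in the same library does not depend on library size. Of 9 ratios, 0 differed between groups at an exact permutation p under 0.05, and adjusted over the 9 ratios all p-values were at least 0.50. Nefh to Nefl was 0.634 to 0.906 in PBS and 0.717 to 0.884 in treated libraries, in CPM, which does not correct for transcript length and so serves only to compare libraries. Nefh to Prph, which sets a filament of large neurons against that of small ones, was 2.58, 3.07, 1.35, 2.63 and 2.68 in PBS replicates 1 to 5. In treated replicates 1 to 5 it was 2.58, 2.7, 1.83, 1.48 and 2.18. PBS replicate 3 and treated replicate 4 were the lowest of each group, and the group means differed by -0.18 log2 units (exact permutation p = 0.508). Unadjusted, Stmn4 to Stmn2 reached an exact permutation p of 0.0238 without PBS replicate 3, and Ina to Nefl reached 0.0476 without SCN9A_2544 replicate 1. These were the lowest values found when each of the 10 libraries was left out for each of the 9 ratios. Under other omissions the exact permutation p was up to 0.50 for Stmn4 to Stmn2 and up to 0.373 for Ina to Nefl. No share over all genes goes with these ratios. Stmn3 to Stmn2 lay between 0.408 and 0.450 in 9 libraries and at 0.285 in SCN9A_2544 replicate 4. Ina to Nefl was 0.0103 to 0.0167 in 9 libraries and 0.0245 in the same replicate 4.

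Beyond neuron content, a few libraries stood apart in several of the 10 genes. In SCN9A_2544 replicate 4, relative to the pan-neuronal mean and to the PBS mean, Nefl, Nefm and Nefh were at -0.51, -0.63 and -0.54 log2 units, while Gap43 was at 1.29, Stmn4 at 1.57, Ina at 0.49 and Stmn2 at 0.41. Prph and Tubb3 were at 0.14 and 0.16 there, and Stmn3 was at -0.16. Nefl, Nefm and Nefh thus lay below their PBS means and Gap43, Stmn4 and Stmn2 above theirs, while the filament genes Ina and Prph lay above and the stathmin Stmn3 below. PBS replicate 3, which received no siRNA, had Nefl at -0.37 and Nefh at -0.69 with Gap43 at 0.66 and Stmn4 at 1.01, whereas Nefm, at -0.0050, was at its PBS mean. SCN9A_2544 replicate 3 was also poor in neurons, with a pan-neuronal mean of 7.21 log2 CPM against 7.41 in PBS replicate 3. That treated library had Nefl at -0.19, Nefm at -0.44 and Nefh at -0.33, but Gap43 at -0.04 and Stmn4 at 0.18. Over the 10 libraries the relative levels of Gap43 and Stmn4 had r = 0.94, and those of Gap43 and Nefl had r = -0.83, given as a description because all relative levels share the reference. Without replicate 4 these were 0.85 and -0.71. Nefl and Nefh had r = 0.89, and 0.85 without it.

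**Figure D4:**
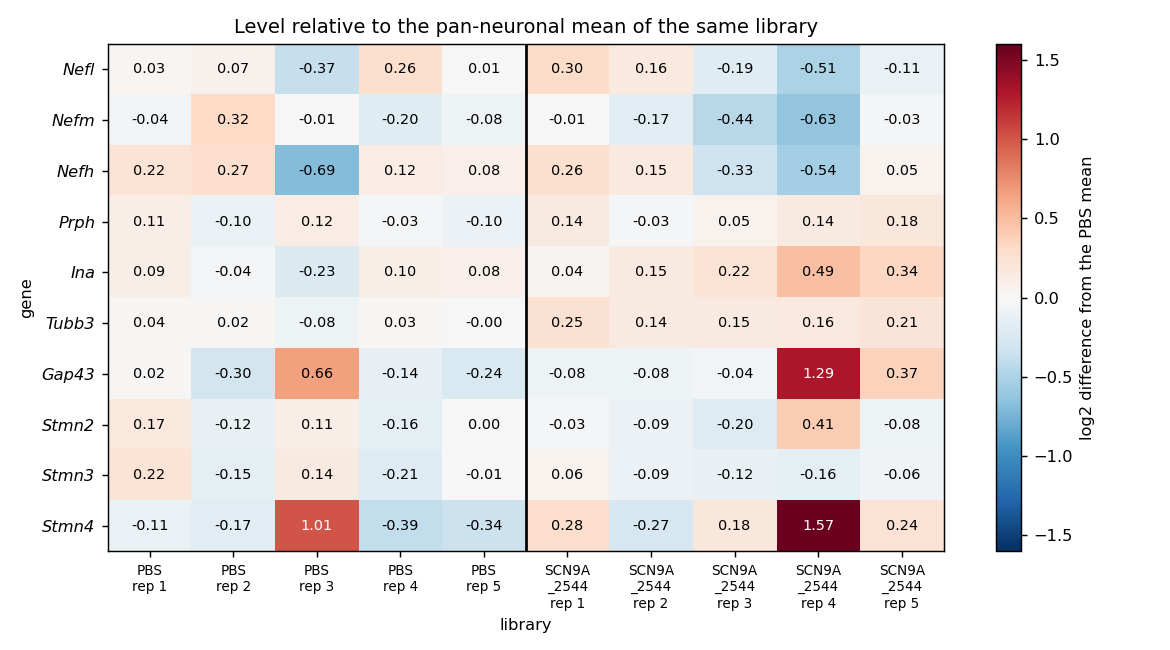
Each cell gives the level of a gene (rows) in a library (columns), relative to the pan-neuronal mean of that library and minus the PBS mean of the gene, in log2 units (red higher, blue lower). The Tubb3 row is at 0.14 or more in all 5 treated libraries. The largest values are 1.57 for Stmn4 and 1.29 for Gap43, both in SCN9A_2544 replicate 4.

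Some other genes known from regrowing sensory neurons were highest in SCN9A_2544 replicate 4, and others were not. Hspb1 stood at 310 CPM there, against 344 and 348 CPM in treated replicates 1 and 2. Marcks stood at 206 CPM there, against 462 CPM in treated replicate 3. The transcription factor gene Atf3 stood at 89.5 CPM in SCN9A_2544 replicate 4, against 14.0 to 74.6 CPM in the other treated libraries and 9.40 to 36.6 CPM in PBS, where replicate 3 was the highest. The neuropeptide genes Gal and Npy stood at 60.6 and 98.5 CPM there, against at most 10.8 and 35.4 CPM in any other library. Of 14 tested genes on the list of growth and regeneration partners, 10 lay above 0 and 4 below, against 53.4% of all genes above 0. On that list 7 had an unadjusted p under 0.05, all higher in treated ganglia, against 4.23% of all genes tested in either direction, and 0 passed the edgeR adjusted threshold. The smallest p-values there belonged to Ecel1, an endopeptidase gene of injured neurons, to Npy and to the transcription factor gene Jun. Ecel1 was at 0.843 to 2.54 CPM in PBS libraries and 3.81 to 18.3 CPM after siRNA, with replicate 4 highest (log2 fold change 2.28, SE 0.46, edgeR adjusted p = 0.812). Jun was at 106 to 138 CPM and 149 to 289 CPM, with replicate 3 highest (log2 fold change 0.74, SE 0.18). Atf3, Gal, Hspb1 and Marcks were chosen for mention after their values were seen. The list was drawn up with earlier results of these data known, so its direction is no independent evidence. In CPM, Gap43 and Stmn4 were lower in treated replicate 3, the library poorest in neurons, than in any other treated library. Relative to the pan-neuronal mean and to the PBS mean they were not the lowest there. On that scale Gap43 was at -0.04 log2 units, against -0.08 in each of treated replicates 1 and 2. Stmn4 was at 0.18, against -0.27 in treated replicate 2. Atf3 stood at 74.6 CPM in treated replicate 3. Macrophage markers were also highest in replicate 4, with a list mean of 5.36 log2 CPM against 4.31 to 4.96 in other treated and 3.79 to 4.37 in PBS libraries. Of these 12 markers 11 lay above 0 (median log2 fold change 0.79), against 53.4% of all genes. An unadjusted p under 0.05 was reached by 6 of them, all higher, against 4.23% of all genes. The summed level of the macrophage markers was 420 to 623 CPM in PBS libraries and 466 to 1130 CPM after siRNA. Of 10 satellite glia markers 8 lay above 0 (median 0.31), against the same 53.4%, and 3 had an unadjusted p under 0.05, all higher, against 4.23%. Their summed levels were 3472 to 5382 CPM in PBS libraries and 4747 to 5932 CPM after siRNA. Among these glia markers, Fbxo2 (log2 fold change 0.06) followed Nefl over the 10 libraries with r = 0.99. The part of either cell type in the values of Gap43, Stmn4 and the growth list was not tested.

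The wider neuronal cytoskeleton did not pass the adjusted threshold either. Of 10 tested tubulin genes, 8 lay above 0, against 53.4% of all genes, and 1 had an unadjusted p under 0.05, against 4.23% of all genes, with a list median log2 fold change of 0.14. It was Tubb6, a beta-tubulin also expressed outside neurons, which averaged 25.7 ± 5.57 CPM in the PBS libraries and 38.5 ± 10.6 CPM in the treated ones (SD, n = 5 each) and had a fold change, in log2, of 0.59 (SE 0.21, edgeR adjusted p = 0.963). Tubb2b, a beta-tubulin of developing and growing neurons, had 0.57 (SE 0.28) and was highest in treated replicate 4, at 990 CPM against 268 to 777 CPM elsewhere. Tuba1c had -0.46.

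Among 19 microtubule-associated proteins 15 lay above 0, with a median of 0.15 and 0 at an unadjusted p under 0.05. The smallest p-values there belonged to Map6, a stabiliser of microtubules, and to Dpysl3 and Dpysl5, collapsin response mediators of growth cones, at 0.48, 0.44 and 0.35. Relative to the pan-neuronal mean these genes differed by 0.39, 0.35 and 0.30 log2 units. Their unadjusted exact permutation p-values were 0.0476, 0.0397 and 0.00794, with 1.53% of all genes under 0.05 and 0 after adjustment. In the covariate fit 3 of the 19 had an unadjusted p under 0.05, all higher, against 9.72% of all genes. Of 14 axonal transport motors 13 lay above 0 with a median of 0.12. The exception was Kif5b, the broadly expressed kinesin heavy chain, which averaged 570 ± 123 CPM in the PBS libraries and 405 ± 41.3 CPM in the treated ones (SD, n = 5 each) and had a fold change, in log2, of -0.49 (SE 0.18, edgeR adjusted p = 0.963). Kif3c and Dctn1 had 0.26 and 0.24. In the covariate fit 2 motors were higher and 1 was lower at an unadjusted p under 0.05. Of 12 spectrin and ankyrin skeleton genes 9 lay above 0 (median 0.15), with Sptb, Add2 and Add1 at -0.39, 0.46 and 0.12. All 11 filament crosslinker, kinase and turnover genes lay above 0 (median 0.15), among them Plec, a plectin that links filaments, Gsk3b, a kinase of neurofilament tails, and Dst, at 0.29, 0.53 and 0.17. Of 7 other intermediate filament genes 5 lay above 0 (median 0.23), with Sync, Krt8 and Gfap at 0.23, 0.39 and 0.31. Over all genes tested 53.4% lay above 0, with a median of 0.02.

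**Figure D5:**
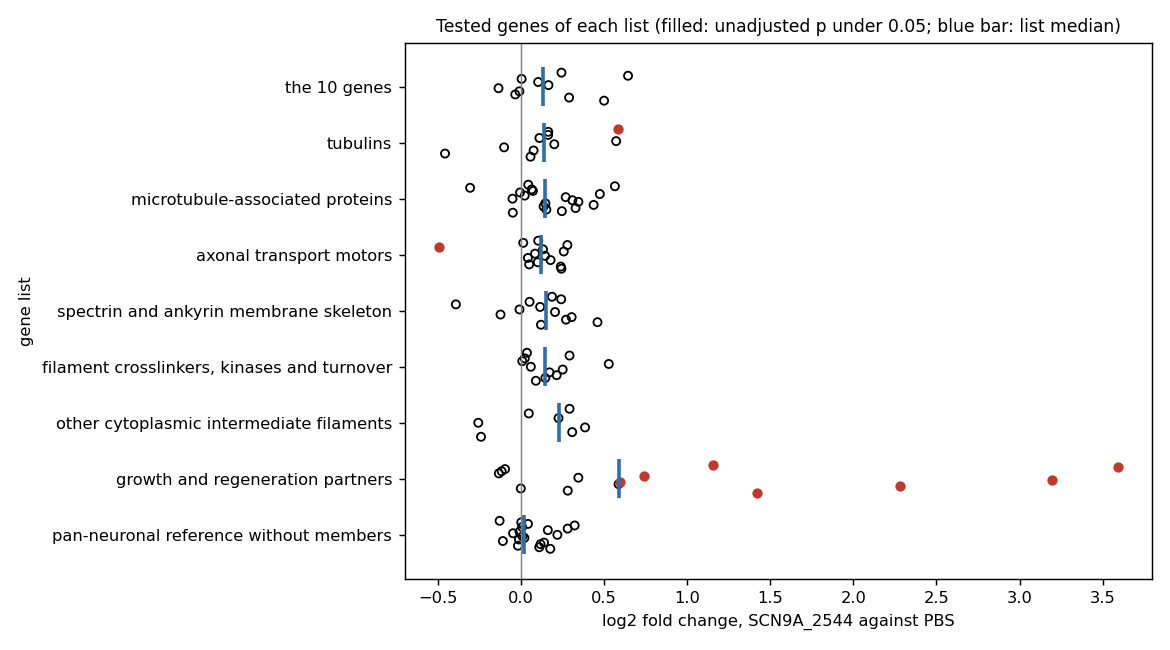
Each point is the log2 fold change (horizontal, SCN9A_2544 against PBS) of 1 tested gene, by gene list (vertical). Filled points have an unadjusted p under 0.05 and blue bars are list medians. The 10 genes and the other cytoskeleton lists have medians of 0.12 to 0.23, and the growth and regeneration partners have a median of 0.59 with 7 filled points.

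The genes whose log2 CPM ran most like that of each member over the 10 libraries, among 10192 others with a mean of at least 10 CPM, were mostly different from member to member. They were Hhatl, Fbxo2 and Septin4 for Nefl (r = 0.99 each), Nkiras1, Pkp1 and Tlcd3b for Nefh (0.99 each) and Lhfpl4, Scn1a and ENSRNOG00000070619 for Nefm (0.98 each). For Prph they were Jak1, Tm6sf1 and Rbfox2 (0.99 each), for Tubb3 Ccdc85a, Snap91 and Pfkfb3 (0.99 each), and for Ina Nt5dc3, Neurl1 and Nptx1 (0.99, 0.98 and 0.98). Stmn2 ran with Serpinb9, Sytl2 and Oxct1 (0.99, 0.99 and 0.98) and Stmn3 with Bpnt1, Nap1l5 and Ddx25 (0.99 each). Stmn4 ran with Adcyap1, Gap43 and RT1-M3-1 (0.95, 0.94 and 0.93), and Gap43 ran with Dusp26, Myadm and Slc17a6 (0.96, 0.95 and 0.95). All these values are descriptions, since neuron content is shared by every neuronal gene of a library.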

How the data were processed

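L6 dorsal root ganglia of 5 PBS and 5 SCN9A_2544 samples were compared by RNA sequencing. The authors deposited estimated counts per gene, unnormalised and not always whole; listed in the submitters' processing notes, without roles, are mRatBN7.2, DESeq2 1.44.0 and STAR 2.7.10a. For counter, annotation and strand the setting is not given in the sources used here. Counts were rounded and tested in edgeR 4.0.16 (R 4.3.3, TMM, quasi-likelihood; genes kept by filterByExpr with a minimum count of 10 and total of 15), with Benjamini-Hochberg adjustment over 15186 genes at 0.05. Log2 CPM used a prior count of 2. Relative levels are log2 CPM minus the mean of 19 pan-neuronal genes, tested by two-sided exact permutation of the group labels, with adjustment over all genes in place of the planned adjustment over the 10. Correlations used 100000 permutations. No 2 libraries agreed within sampling noise (chi-square per gene at least 7.80 over 45 pairs). The labels name no separate animals, so p-values reflect only sample-to-sample spread, which may be technical.

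Alternatives were DESeq2 1.42.0, limma 3.58.1 voom with quality weights, other scaling factors, no filter, a replicate block, neuron or Schwann cell covariates, other references and leaving out each library. The fits were tested on simulated data. The 10 genes and all gene lists were chosen with earlier results of these data known. Other genes were named by a fixed rule: up to 3 genes a list with the smallest p, and the 3 genes most correlated with each of the 10. Outside it, Scn9a was named as the target, Avil, Drgx, Isl1 and Mnx1 as tissue markers, and Atf3, Gal, Hspb1 and Marcks after their values were seen. Promoter sequences are from RefSeq, GRCr8, not the build of the counts, so no coordinates were joined. Intervals are at 95%.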

Additional observations from a re-analysis of the deposited data

Results flagged for a closer look

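Among 58 groups of 5 values examined, 11 held a library whose gap to its nearest neighbour took more than 0.710 of the group's range, a limit that chance passes in about 1 in 20 groups. The groups share libraries and are not independent.

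In SCN9A_2544 ganglia, replicate 3 lay below the rest for Prph (10.08 log2 CPM), Ina (5.49), Tubb3 (10.66), Stmn2 (9.36) and Stmn3 (8.20). It was also the library with the lowest pan-neuronal mean, 7.21 log2 CPM. SCN9A_2544 replicate 4 lay apart through a high Stmn2 level relative to the pan-neuronal mean (2.75 log2 units) and a low log2 ratio of Stmn3 to Stmn2 (-1.81).

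In PBS ganglia, replicate 3 lay apart in 4 values. Nefh was low relative to the pan-neuronal mean (3.37 log2 units) and Stmn4 was high (-2.68). The log2 ratio of Nefh to Prph was low (0.44), and that of Stmn4 to Stmn2 was high (-5.14).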

How the results depend on the processing

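No gene of the 10 passed an adjusted p of 0.05 under any of the 19 alternatives run, where adjusted p-values ranged from 0.182 to 1.00. Leaving out the 2 neuron-poor libraries was chosen after seeing the data. With voom quality weights, 4 of the 10 had an unadjusted p under 0.05, with the pan-neuronal covariate 2, without the neuron-poor libraries 1, and without single libraries 0 to 2. Over all genes, DESeq2 called 17, and voom, the pan-neuronal covariate, the Schwann cell covariate and the set without neuron-poor libraries called 1 each (0 to 1 without single libraries). Unadjusted calls were 985 with no filter, 967 by DESeq2, 3175 by voom, 1476 and 1291 with the 2 covariates, and 385 to 1642 without single libraries. For the fit without the neuron-poor libraries no such number is given, so its 1 call among the 10 has no share beside it.

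Fold changes near 0 turned sign. Nefl was 0.29 and Nefh 0.21 by voom, and Stmn2 was -0.071 with the Schwann covariate. Stmn3 was -0.011 with DESeq2 size factors, -0.0097 by DESeq2, -0.028 with upper-quartile factors, -0.022 with no filter, -0.081 with the pan-neuronal and -0.17 with the Schwann covariate. Without single libraries the ranges were -0.19 to 0.22 (Nefl), -0.26 to 0.023 (Nefm), -0.25 to 0.13 (Nefh), -0.029 to 0.27 (Stmn2) and -0.11 to 0.19 (Stmn3). The log2 ratios ranged over -0.087 to 0.042 (Nefh to Nefl), 0.15 to 0.46 (Ina to Nefl), -0.12 to 0.049 (Stmn3 to Stmn2) and 0.21 to 0.62 (Stmn4 to Stmn2).

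Relative to neurons, Tubb3 was 0.24 against the list's median and 0.033 against the identity genes. Ina was 0.30 and 0.10, and 0.19 without the neuron-poor libraries. Against the identity genes Nefm was -0.40 and Prph -0.053. Stmn2 was 0.054 against the median and 0.077 without the neuron-poor libraries. Without single libraries the ranges were -0.17 to 0.036 (Nefl), -0.25 to 0.034 (Nefh), 0.19 to 0.30 (Ina), and -0.10 to 0.050 (Stmn2). The cause was not tested.

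The labels do not say whether samples with the same replicate number share anything beyond that number. The deviations of such samples correlated at 0.38, 0.00, 0.57, -0.01 and 0.05, and 4 of 10 libraries correlated best with their own number. With a replicate block, Nefl was 0.0083 and Stmn3 was -0.0030, and the relative differences of Tubb3 (0.18) and Ina (0.25) had exact sign-flip p-values of 0.0625, the smallest that 5 pairs allow, and 0.125. With 5 libraries a group, the SE of the log2 fold change was 0.30 for Tubb3 and 0.29 for Ina, and 0.080 and 0.10 with the pan-neuronal covariate.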

Other observations

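Markers of sensory neuron size classes were set beside the filament genes, all relative to the pan-neuronal mean and as a description over 10 libraries. The mean of 10 genes of small-diameter neurons had r = 0.62 with Prph and r = -0.71 with Nefl, -0.46 with Nefm and -0.58 with Nefh. The mean of 9 genes of large-diameter neurons had r = -0.49 with Nefh, -0.24 with Nefm and -0.17 with Nefl, and the Nefh to Prph ratio had r = -0.02 with the difference of the 2 lists.

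Slc5a7, the choline transporter gene of cholinergic neurons, stood at 26.1 CPM in SCN9A_2544 replicate 4 and at 1.57 to 5.89 CPM in the other 9 libraries. The motor neuron gene Mnx1 had 0 to 1 counts in any library.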
